A study of Homo sapiens with 10 samples.

Results

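The clustered histone genes were followed in RNA sequencing of H9 cells, a human embryonic stem cell line, after differentiation in culture. Genes of the table were taken when their symbol began with HIST1H, HIST2H, HIST3H or HIST4H and did not carry the ending of a numbered pseudogene. This gave 78 entries with 74 symbols among 64940 genes: 6 of H1, 18 of H2A, 24 of H2B, 15 of H3 and 15 of H4. The symbols HIST3H2A, HIST3H2BA, HIST3H2BB and HIST3H3 each had a second identifier, which was listed at 0 in every library.

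The comparison asks how expression differs between cells that overexpress DAZL, an RNA-binding protein of germ cells, and control cells. The control group (n = 2 libraries) has the genotype wt and is labelled as spontaneously differentiated cells, whereas the oeDAZL group (n = 2 libraries) is labelled as human primordial germ cell-like cells (hPGCLCs) overexpressing DAZL. According to the study's methods, cells for overexpression were treated with BMP4 and BMP8a, transduced with lentivirus carrying DAZL and GFP, and differentiated further with both BMPs. The design text calls both groups PGCLCs, and in the miRNA experiment of the methods the control cells received a GFP virus and the same BMPs. Which description holds for these control libraries is not settled, and if the sample labels hold, DAZL and the culture cannot be told apart. The libraries come from a single cell line. Whether the 2 libraries of a group came from separate cultures is not given, and the P-values then measure only the spread between these libraries, which may be technical.

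Values are given as TPM, a measure of transcript abundance, which is scaled for gene length and adds up to a fixed total in each library. The read depth of the libraries is unknown, since TPM does not keep it. DAZL was at 0 and 0.0333 TPM in control and at 102 and 101 TPM in oeDAZL. Against the label hPGCLC, a list of 8 markers of primordial germ cells summed to 71.2 and 63.7 TPM in control and 58.1 and 63.7 TPM in oeDAZL, most of it TFAP2C at 44.3 to 53.9 TPM. NANOS3, PRDM1 and SOX17 lay between 0.732 and 3.35 TPM, DDX4, a marker of later germ cells, was listed at 0 in all 4 libraries, and of the 6 tested genes 0 passed P of 0.05 in limma. Markers of other cells were compared at an unadjusted P of at most 0.05 in limma. At that threshold 15.2% of all tested genes were lower in oeDAZL and 5.02% were higher. Of 3 tested neural genes, 2 were lower. The neural list summed to 22.6 and 13.0 TPM in control and to 8.99 and 10.3 TPM in oeDAZL. Without control replicate 1 neither neural gene passed (PAX6 at −0.71 and OTX2 at −0.50 on the log2 scale). Of 6 amnion and trophoblast genes, 3 were lower and 0 higher at that threshold, although 1 was higher with median-of-ratios scaling. Their sums were 1221 and 1189 TPM in control and 1175 and 1170 TPM in oeDAZL. Of 7 mesoderm and mesenchyme genes, 3 were lower and 1 higher. Their sums were 2308 and 2203 TPM in control and 1961 and 1986 TPM in oeDAZL. Of 5 tested pluripotency genes 2 were higher (POU5F1 and TDGF1) and 0 lower at that threshold. The other 3, SOX2, LIN28A and DPPA4, had log2 fold changes of −0.60, −0.14 and −0.11, and the median of the 5 was −0.11. The pluripotency sums, 546 and 495 TPM in control and 497 and 477 TPM in oeDAZL, were mostly LIN28A at 401 to 476 TPM. The part of these markers in the histone values was not tested. In bulk libraries such as these, fewer cells of a type and less RNA per cell cannot be told apart.

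Nucleosomes hold DNA around an octamer of H2A, H2B, H3 and H4, and H1 binds the linker DNA between them. Most histone protein for new chromatin is made during S phase from the clustered, replication-dependent genes. Their mRNAs have no introns and usually no poly(A) tail. They end instead just past a short stem-loop, which is bound by SLBP and guides cleavage of the precursor, translation, and rapid decay when replication stops. A few of these genes also make polyadenylated mRNAs in differentiated cells. Replacement histones, by contrast, are made outside S phase too, mostly from polyadenylated mRNAs.

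Of the 78 entries, 74 were found in GENCODE 44 on hg38, with 55 on chromosome 6, 18 on chromosome 1 and 1 on chromosome 12. The canonical transcript of each of the 74 has a single exon, and 4 of the 74 are annotated as pseudogenes (HIST2H2BA, HIST2H2BB, HIST2H2BD and HIST3H2BA). The stem-loop was searched in the 150 bases after the stop codon, as a hairpin of 16 bases with 6 stem pairs of which at most 1 is mismatched, GG at its start, CC at its end, and a loop of 4 bases that begins with TT. It was found in 67 of 70 protein-coding members (95.7%), against 106 of 20046 protein-coding genes (0.529%), the members included. The 39 genes that held it without being members included H2AX, the source of a histone variant used in DNA repair. It began 23 to 68 bases after the stop codon, with a median of 37. These letters were not in that window of HIST1H3E, HIST1H2BI and HIST1H4L.

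The hairpins below are shown because they are the end signal that these mRNAs share and because they separate H4 from the other types. The leading member of each histone type is given, with HIST1H4K as the second form of H4, from the hg38 genome in the direction of the gene. The 16 bases of the hairpin are in capitals, with 5 bases on either side.
HIST1H1C: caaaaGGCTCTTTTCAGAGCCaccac
HIST3H2A: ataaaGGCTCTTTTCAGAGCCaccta
HIST1H2BK: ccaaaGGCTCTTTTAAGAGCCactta
HIST1H3H: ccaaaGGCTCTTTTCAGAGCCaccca
HIST4H4: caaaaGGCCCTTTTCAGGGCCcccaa
HIST1H4K: caaaaGGCCCTTTTTAGGGCCcccac
The capitals lie at chr6:26055744-26055759 on the minus strand for HIST1H1C, at chr1:228457369-228457384 on the minus strand for HIST3H2A, and at chr6:27146366-27146381 on the minus strand for HIST1H2BK. They lie at chr6:27810516-27810531 on the plus strand for HIST1H3H, at chr12:14770724-14770739 on the minus strand for HIST4H4, and at chr6:27831178-27831193 on the minus strand for HIST1H4K. All 6 sit in the 3′ untranslated part of the annotated exon.

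The H4 hairpins found had CCC at bases 3 to 5 in all 14 genes, of which 10 had the form of HIST4H4 and 4 that of HIST1H4K. The hairpins of H1, H2A, H2B and H3 had CTC there, apart from HIST1H2AK with TTC. The form of HIST1H1C was the most frequent outside H4, with 4 genes of H1, 13 of H2A, 12 of H2B and 11 of H3. The form of HIST1H2BK occurred in 2 genes of H1, 1 of H2A, 5 of H2B and 2 of H3.

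Clustered histone transcripts had low TPM in the deposited table. The submitters' labels name total RNA, but whether poly(A) selection followed is not given in the sources used here. Such selection removes mRNAs without a tail, so the levels and ranks below describe these libraries and need not be those in the cells. Of the 78 members, 18 were listed at 0 in all 4 libraries, 43 were above 0 with a mean under 1 TPM, 14 had a mean between 1 and 5 TPM, and 3 had a mean above 5 TPM. Among those listed at 0 was HIST1H4C, an H4 gene of dividing cells, as were TERC and RNU6ATAC, RNAs without a poly(A) tail, so a listed 0 is not read as absence. The members above 0 numbered 47 and 48 in control and 45 and 46 in oeDAZL, so their number barely differed between groups. Summed over all 78, they reached 85.0 and 77.3 TPM in control and 66.0 and 72.6 TPM in oeDAZL. Both oeDAZL libraries lay below both control libraries, with means of 81.2 ± 5.41 and 69.3 ± 4.69 TPM (SD, n = 2) and a log2 ratio of −0.23. No test was run on the sums. The 12 replacement histones summed to 2891 and 2797 TPM in control and 2835 and 2877 TPM in oeDAZL, so that the clustered genes came to 2.94% and 2.76% of that amount in control and 2.33% and 2.52% in oeDAZL.

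HIST1H2BK, HIST1H1C and HIST3H2A together held 40.0% and 43.6% of the summed TPM in control and 47.0% and 43.7% in oeDAZL. These 3 genes summed to 34.0 and 33.7 TPM in control and 31.0 and 31.7 TPM in oeDAZL, a log2 ratio of −0.11. The other 75 members summed to 51.0 and 43.6 TPM in control and 35.0 and 40.9 TPM in oeDAZL, a log2 ratio of −0.32.

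The sums were also taken by histone type. For H1 they were 10.7 and 11.6 TPM in control and 7.91 and 9.37 TPM in oeDAZL, with a log2 ratio of −0.37 and no overlap between groups. For H2A they were 25.8 and 23.0 TPM in control and 20.0 and 23.4 TPM in oeDAZL (log2 ratio −0.17, or −0.06 without oeDAZL replicate 1), and the groups overlapped. H2B was level, with 25.1 TPM in both control libraries and 24.4 and 25.9 TPM in oeDAZL, means of 25.1 ± 0.0303 and 25.1 ± 1.07 TPM (SD, n = 2), although with median-of-ratios scaling both oeDAZL libraries (25.1 and 26.5) lay above both control libraries (24.0 and 24.7). H3 had the lowest sum of the core histones, at 3.58 and 4.96 TPM in control and 3.85 and 2.36 TPM in oeDAZL (log2 ratio −0.46, or −0.15 without oeDAZL replicate 2), again with overlap. For H4 the sums were 19.9 and 12.7 TPM in control and 9.83 and 11.6 TPM in oeDAZL. The log2 ratio of H4, −0.60, rested largely on control replicate 1, and it was −0.24 without that library.

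**Figure D1:**
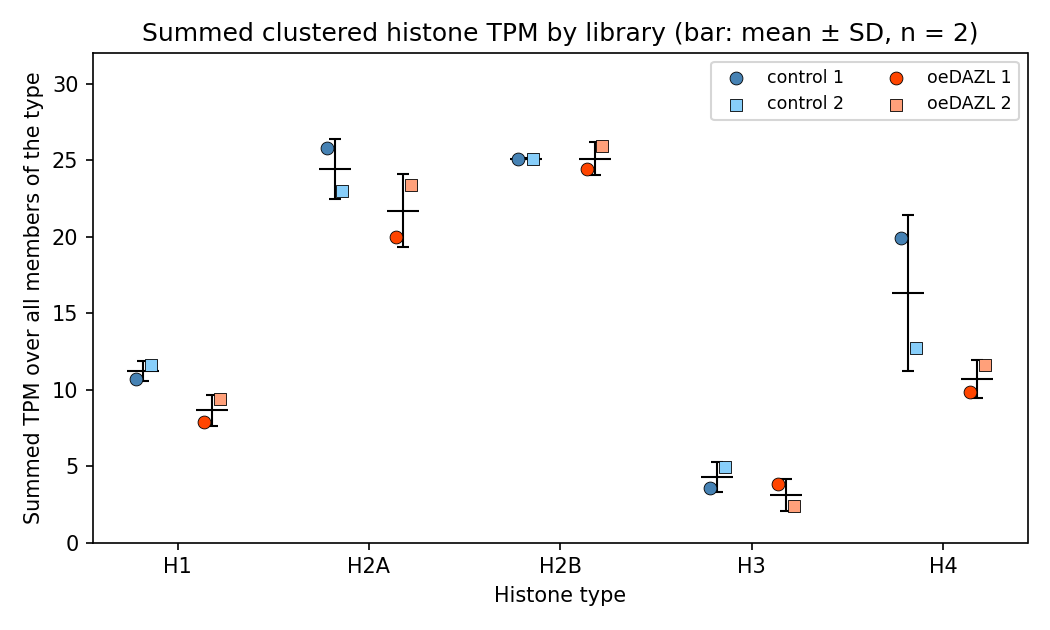
Summed TPM over all members of each histone type (vertical axis), by histone type (horizontal axis), with a point per library and a bar for the mean ± SD of 2 libraries per group. H2B has a mean of 25.1 TPM in both groups, and the H4 sum of control replicate 1, 19.9 TPM, stands above the other 3 libraries, which lie between 9.83 and 12.7 TPM.

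By cluster, the 14 members of HIST2 on chromosome 1 summed to 19.4 and 19.1 TPM in control and 14.9 and 15.9 TPM in oeDAZL, a log2 ratio of −0.32. The 55 members of HIST1 on chromosome 6 summed to 49.0 and 46.8 TPM in control and 38.6 and 46.5 TPM in oeDAZL, a log2 ratio of −0.17. The HIST2 sums did not overlap between groups, either as deposited or with median-of-ratios scaling. They include near-identical copies, such as HIST2H2AA3 and HIST2H2AA4, which may not be separate measurements. The HIST1 sums did not overlap as deposited, but with median-of-ratios scaling they were 46.8 and 46.1 in control and 39.8 and 47.6 in oeDAZL, which overlap. The 8 entries of HIST3 summed to 12.1 and 8.00 TPM in control and 9.14 and 7.89 TPM in oeDAZL, with overlap.

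For the test across genes, log2(TPM + 1) was fitted with limma for the 16687 genes with a mean of at least 1 TPM. This scale understates the change of low genes. Only 17 members (21.8%) reached that mean, so the counts that follow describe those 17 and not the whole set. No tested member reached a fold change of at least 2 with P of at most 0.05 in limma, in a comparison where 0.126% of all tested genes did so upwards and 0.563% downwards. At P of at most 0.05 whatever the fold change, 1 tested member was lower (HIST1H1C) and 0 were higher, while 15.2% of all tested genes were lower and 5.02% higher at that threshold. None of the 17 had a Benjamini-Hochberg adjusted p under 0.05 in limma, the lowest being 0.219 and the highest 0.989, and over all genes 10 did.

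A log2 fold change below 0 was found for 13 of the 17 tested members, against 65.3% of all tested genes, and the median was −0.24 for the members and −0.08 for all tested genes. With median-of-ratios scaling the count was 12 of 17, against 50.5% of all tested genes, and with quantile normalization it was 10 of 17, against 48.7%. Both oeDAZL libraries lay below both control libraries for 8 of the 17, against 38.4% of all tested genes, and above them for 0, against 16.0%. These counts of 13 and 8 stand near the shares over all tested genes. Of the 17, 7 share more than 90% of the 50-base words of their canonical transcript with other histone genes. The counts thus include copies that may not be separate measurements. For the other 9 the libraries of the groups overlapped.

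**Figure D2:**
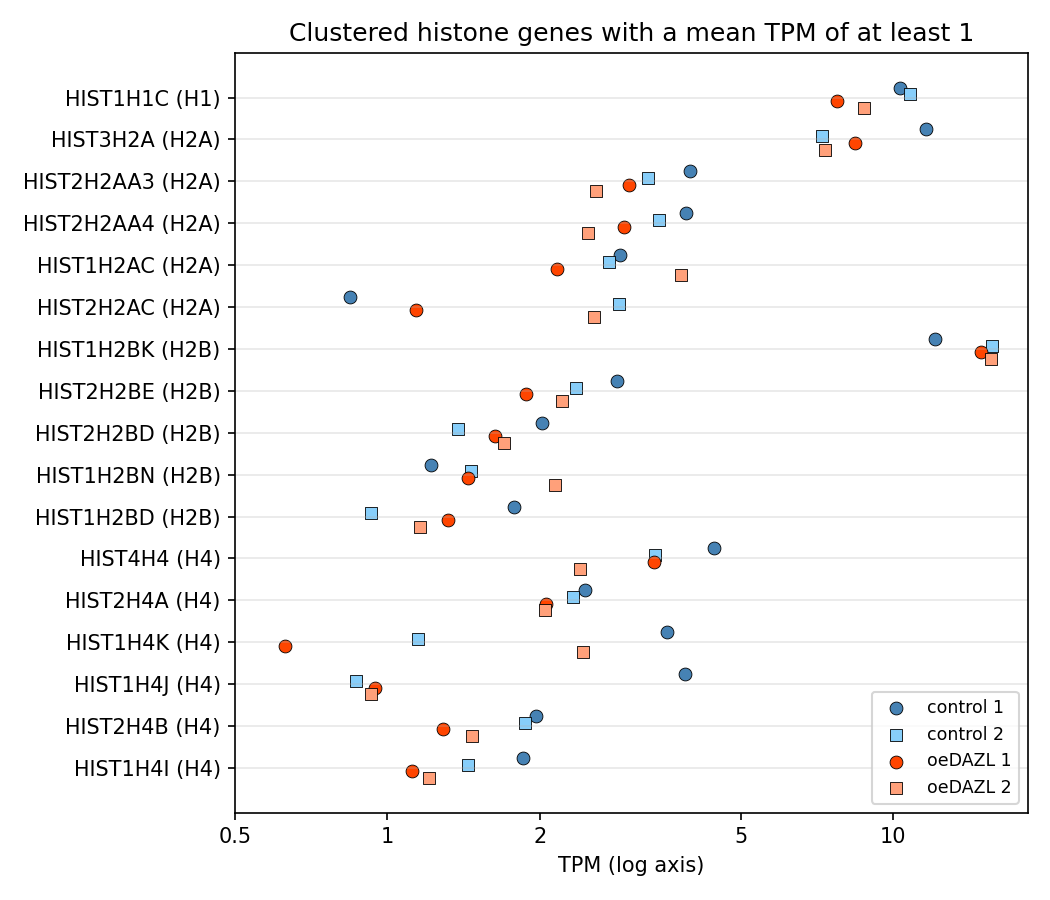
TPM (horizontal log axis) of the 17 clustered histone genes with a mean of at least 1 TPM, listed by gene with the histone type in brackets, with a point for each of the 2 control and 2 oeDAZL libraries. HIST1H2BK, HIST1H1C and HIST3H2A stand apart at 7.24 to 15.7 TPM, and HIST1H4J and HIST1H4K show a high value in control replicate 1, at 3.88 and 3.57 TPM.

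Among the linker histones, HIST1H1C, which encodes H1.2, made up nearly all of the H1 transcripts. It was at 10.3 and 10.8 TPM in control and at 7.75 and 8.75 TPM in oeDAZL, without overlap. In limma the log2 fold change was −0.32 (standard error 0.12, adjusted p = 0.219). It passed the unadjusted threshold as deposited, but with median-of-ratios scaling (−0.25) and with quantile normalization (−0.21) it did not, nor did it with any of the 4 libraries left out. The next highest H1 gene, HIST1H1E, which encodes H1.4, was at 0 and 0.656 TPM in control and 0.166 and 0.140 TPM in oeDAZL. HIST1H1B, HIST1H1D and HIST1H1E were thus near the lower end of the scale, and HIST1H1A and the testis gene HIST1H1T were listed at 0 throughout.

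H2A and H2B enter the nucleosome as dimers. The leading H2A gene, HIST3H2A, was at 11.6 and 7.24 TPM in control and at 8.42 and 7.34 TPM in oeDAZL. Both oeDAZL libraries lay between the control libraries, and the log2 fold change was −0.20 (standard error 0.22, adjusted p = 0.635 in limma). With control replicate 2 left out it was −0.51 and passed the unadjusted threshold, and with control replicate 1 left out it was 0.11. Its annotated locus reaches 22592 bases past the hairpin and overlaps RPL23AP15 on the same strand, so the division of reads is uncertain there. HIST2H2AA3 and HIST2H2AA4 are near-identical copies. HIST2H2AA3 was at 3.97 and 3.27 TPM in control and at 3.01 and 2.58 TPM in oeDAZL, and HIST2H2AA4 was at 3.90 and 3.44 TPM in control and at 2.94 and 2.49 TPM in oeDAZL. In both copies each oeDAZL library lay below each control library, with log2 fold changes of −0.28 and −0.33 and adjusted p = 0.436 and 0.354 in limma. They share at least 99.8% of their 50-base words with other histone genes, so they give 1 measurement rather than separate ones.

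HIST1H2AC was at 2.88 and 2.74 TPM in control and at 2.16 and 3.80 TPM in oeDAZL, a log2 fold change of 0.03. HIST2H2AC was at 0.843 and 2.87 TPM in control and at 1.14 and 2.56 TPM in oeDAZL, a log2 fold change of 0.05 with a standard error of 0.42. For HIST2H2AC the spread within both groups exceeded the difference between them, and for HIST1H2AC the spread within oeDAZL did. Of the 13 H2A members that were not tested, 3 were at 0 throughout, the group mean was lower in oeDAZL for 5 and higher for 5, and no library exceeded 1.59 TPM.

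HIST1H2BK, which is on a list of members known to make polyadenylated mRNA too, had the highest mean TPM of the clustered genes in these libraries. It was at 12.1 and 15.7 TPM in control and at 14.9 and 15.6 TPM in oeDAZL, which overlapped. The log2 fold change was 0.14 (standard error 0.14, adjusted p = 0.610 in limma). With control replicate 2 left out it was 0.31, past the unadjusted threshold, and with control replicate 1 left out it was −0.04. HIST2H2BE was at 2.84 and 2.36 TPM in control and at 1.88 and 2.21 TPM in oeDAZL, with no overlap and a log2 fold change of −0.24 (standard error 0.20, adjusted p = 0.536 in limma). HIST1H2BN had the highest log2 fold change of the tested members, 0.25, with 1.22 and 1.46 TPM in control and 1.44 and 2.14 TPM in oeDAZL (adjusted p = 0.594 in limma). Its groups overlapped, as did those of HIST1H2BD and HIST2H2BD, whose log2 fold changes were −0.05 and −0.01. The median of the 5 tested H2B genes was −0.01, and it was 0.05 with median-of-ratios scaling and 0.17 with quantile normalization. In each of these settings the median was the value of HIST2H2BD. That gene is annotated as a pseudogene, and 95.0% of its 50-base words also occur in other histone genes.

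H3 and H4 form the tetramer at the centre of the nucleosome. No H3 member reached a mean of 1 TPM, so none was tested. HIST1H3H, the highest, was at 1.24 and 0.890 TPM in control and at 1.14 and 0.461 TPM in oeDAZL, and the groups overlapped. HIST1H3E was at 0.471 and 0.648 TPM in control and 0.297 and 0.606 TPM in oeDAZL, and HIST1H3B at 0.264 and 0.849 TPM in control and 0.338 and 0.404 TPM in oeDAZL. Both also overlapped. HIST2H3A was at 0.458 and 0.724 TPM in control and at 0.384 and 0.225 TPM in oeDAZL, with its near-identical copy HIST2H3C at almost the same values. This was a separation between groups at levels under 1 TPM. Over the 15 H3 members, the group mean was lower in oeDAZL for 9 and higher for 4, and 2 were at 0 throughout.

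The 6 tested H4 genes encode the same protein from separate loci, and each had a log2 fold change below 0, with a median of −0.32, whereas with quantile normalization 1 of them (HIST2H4A) was above 0 and the median was −0.15. Without control replicate 1, 4 of the 6 were below 0. The pair with the lowest log2 fold changes of the 17 were HIST1H4J and HIST1H4K. HIST1H4J was at 3.88 and 0.866 TPM in control and at 0.946 and 0.926 TPM in oeDAZL. Control replicate 1 alone stood high, and both oeDAZL libraries were above control replicate 2. In limma the log2 fold change was −0.64 (standard error 0.45, adjusted p = 0.464). Leaving out control replicate 1 gave 0.05, and leaving out control replicate 2 gave −1.33, which passed a fold change of 2 and the unadjusted threshold. HIST1H4K was at 3.57 and 1.15 TPM in control and at 0.626 and 2.44 TPM in oeDAZL, with overlap. Its log2 fold change was −0.41, or 0.14 with control replicate 1 left out. Of the 50-base words of these genes, 92.1% and 92.6% also occur in other histone genes.

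The other 4 tested H4 genes did not overlap between groups as deposited, where 38.4% of all tested genes were likewise lower without overlap. Of these, HIST2H4A and HIST2H4B are copies in their canonical transcripts and may not be separate measurements. HIST4H4, the only gene of its cluster, was at 4.42 and 3.38 TPM in control and at 3.36 and 2.40 TPM in oeDAZL, so that the nearest libraries nearly met, and they overlapped with median-of-ratios scaling. The difference was −0.34 on the log2 scale (standard error 0.21, adjusted p = 0.418 in limma). HIST2H4A was at 2.46 and 2.33 TPM in control and at 2.06 and 2.05 TPM in oeDAZL, and its copy HIST2H4B was at 1.97 and 1.87 TPM in control and at 1.29 and 1.47 TPM in oeDAZL. All 50-base words of their canonical transcripts also occur in other histone genes. That share does not cover their annotated exons past the hairpin, which reach 6720 bases for HIST2H4A and 6724 bases for HIST2H4B. HIST1H4I, which shares 2.0% of its words, was at 1.85 and 1.44 TPM in control and at 1.12 and 1.21 TPM in oeDAZL, with a log2 fold change of −0.28 (standard error 0.23, adjusted p = 0.516 in limma).

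**Figure D3:**
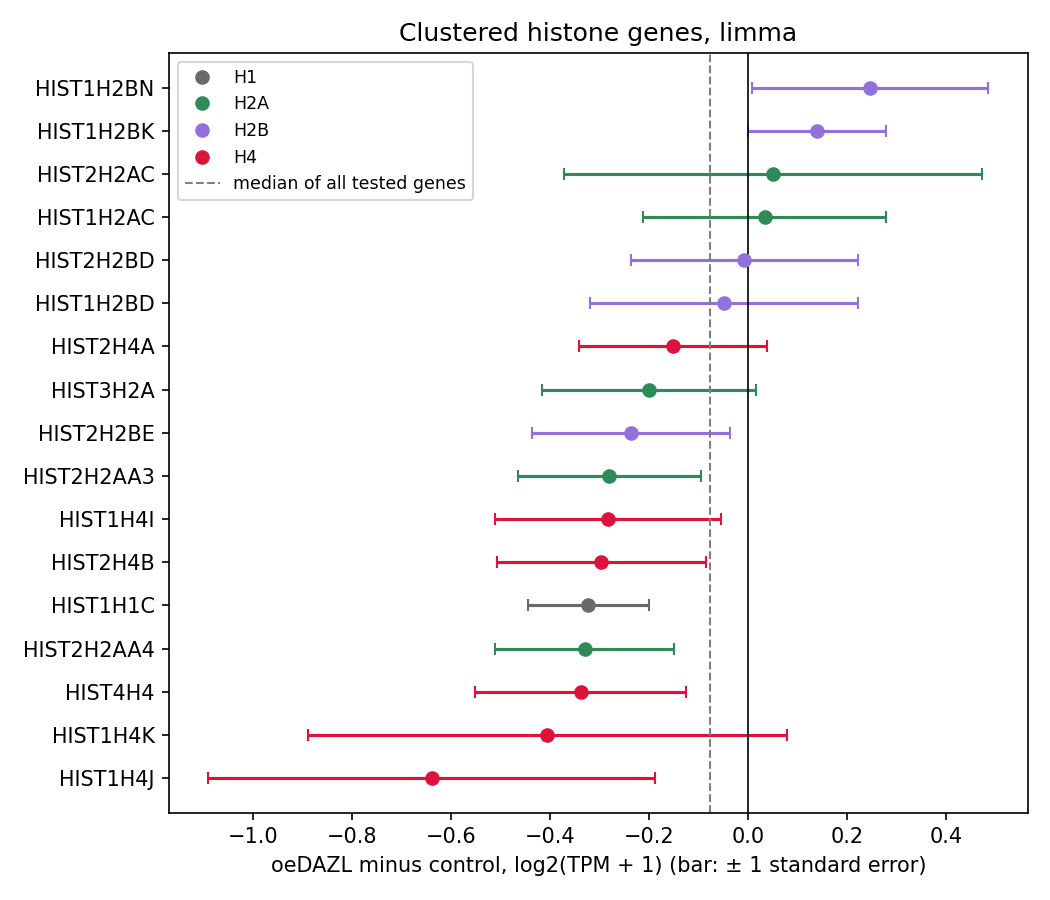
Log2 fold change of oeDAZL over control on the log2(TPM + 1) scale (horizontal axis) for the 17 tested members, with bars of ± 1 standard error from limma and colours by histone type. The 6 H4 genes lie below 0 as deposited, although HIST2H4A lies above it with quantile normalization, the H2A and H2B genes lie on both sides of it, and the dashed line marks the median of all tested genes, −0.08.

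Some clustered genes are known to produce polyadenylated mRNA as well. A list of 6 such genes (HIST1H1C, HIST1H2AC, HIST1H2BD, HIST1H2BJ, HIST1H2BK and HIST2H2BE) summed to 30.3 and 32.9 TPM in control and to 28.3 and 31.9 TPM in oeDAZL, which overlapped. Of its 5 tested genes, 1 was lower at P of at most 0.05 in limma (HIST1H1C) and 0 were higher. Over all tested genes 15.2% were lower and 5.02% higher. The median log2 fold change of the 5 was −0.05, or 0.12 with quantile normalization.

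The annotated 3′ end gave a further division. For 16 of the 67 members with a hairpin, GENCODE 44 annotates an exon that ends more than 100 bases past it. These 16 had a median of 1.12 TPM over the means of the 4 libraries (range 0 to 8.65), and 8 of them were tested. The 51 members without such an exon had a median of 0.174 TPM (range 0 to 14.6), and 8 of them were tested. HIST1H2BK and HIST1H1C, the most abundant members, were in the second group. The tested genes were lower in oeDAZL for 6 of 8 in each group, with median log2 fold changes of −0.18 and −0.30, beside 65.3% and a median of −0.08 for all tested genes.

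**Figure D4:**
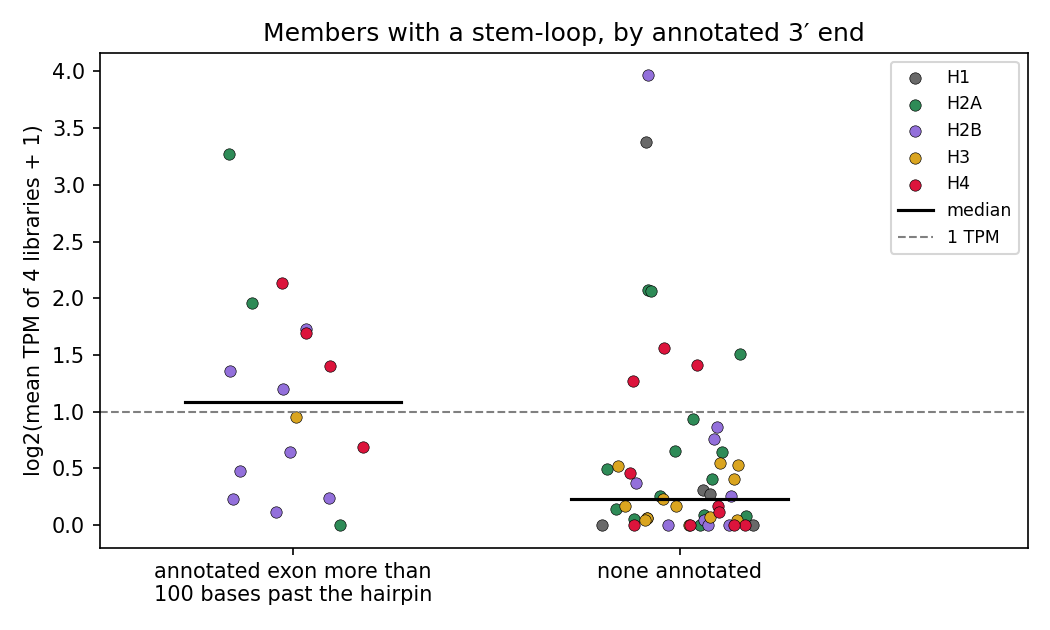
Mean TPM over the 4 libraries as log2(mean + 1) (vertical axis) of the 67 members with a hairpin, divided by whether an exon is annotated more than 100 bases past it (horizontal axis), with a point per gene coloured by histone type and a line at the median. The medians are 1.12 TPM for 16 genes with such an exon and 0.174 TPM for 51 genes without.

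Of the testis genes of the clusters, HIST1H1T, HIST1H2AA and HIST1H2BA were listed at 0 in all 4 libraries. HIST3H3, the testis H3, was at 0.265 and 0.414 TPM in control and at 0.624 and 0 TPM in oeDAZL, which overlapped.

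Replacement histones had higher TPM than the clustered genes, a comparison that poly(A) selection would favour. Apart from H3F3C, at 0.917 to 1.68 TPM, the lowest value of any replacement histone was 21.5 TPM, that of the centromeric CENPA in control replicate 1, against a highest clustered value of 15.7 TPM. H3F3A was between 586 and 659 TPM and H2AFZ between 533 and 579 TPM in the 4 libraries. H3F3B, which like H3F3A encodes H3.3, was at 516 and 509 TPM in control and at 582 TPM in both oeDAZL libraries. In limma this was a log2 fold change of 0.18 (standard error 0.05, adjusted p = 0.138). H2AFX, which makes H2A.X and holds the stem-loop too, was at 165 and 164 TPM in control and at 143 and 145 TPM in oeDAZL (log2 fold change −0.19, adjusted p = 0.144 in limma). H1F0, the linker histone of differentiated cells, was at 235 and 216 TPM in control and at 190 and 199 TPM in oeDAZL (log2 fold change −0.21, adjusted p = 0.169 in limma). In all, 1 of 12 replacement histones was higher and 2 were lower at P of at most 0.05 in limma. Of all tested genes, 5.02% were higher and 15.2% lower at that threshold. The median log2 fold change of the 12 was 0.00. With median-of-ratios scaling 5 were higher and 0 lower, with a median of 0.09, beside 9.95% and 9.16% of all tested genes. With quantile normalization the counts were 1 higher and 2 lower, as deposited, beside 8.40% and 9.07%.

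The factors that process histone pre-mRNA were followed as a list of 11 genes. SLBP, the stem-loop binding protein, was at 125 and 144 TPM in control and at 143 and 149 TPM in oeDAZL, with overlap and a log2 fold change of 0.12 (standard error 0.08, adjusted p = 0.452 in limma). SYMPK, a scaffold of the cleavage complex, was at 72.1 and 64.0 TPM in control and at 57.8 and 58.3 TPM in oeDAZL (log2 fold change −0.22, adjusted p = 0.195 in limma). SRRT, which encodes ARS2, was at 156 and 147 TPM in control and at 136 and 131 TPM in oeDAZL (log2 fold change −0.18, adjusted p = 0.184 in limma). These 2 were lower at P of at most 0.05 in limma, 0 were higher, and the median of the 11 was 0.04. At that threshold 15.2% of all tested genes were lower and 5.02% higher. With median-of-ratios scaling neither SYMPK nor SRRT passed, 1 other gene was higher, and the median was 0.12. With quantile normalization both still passed, 1 other gene (ERI1) was higher, and the median was 0.12. There, 9.07% of all tested genes were lower and 8.40% higher.

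Of 6 genes of the histone locus body and of histone gene transcription, 0 passed P of 0.05 in either direction in limma, with a median log2 fold change of −0.01, or 0.07 with either median-of-ratios scaling or quantile normalization. NPAT, the co-activator that drives histone genes at entry into S phase, was at 12.0 and 12.4 TPM in control and at 12.8 and 11.0 TPM in oeDAZL. E2F2 was at 3.29 and 3.12 TPM in control and at 4.51 and 4.27 TPM in oeDAZL, without overlap (log2 fold change 0.36, adjusted p = 0.277 in limma). It passed the unadjusted threshold under both of those scalings, at 0.42 and 0.51.

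Histone chaperones carry new histones to DNA. Of 11 such genes, 1 was higher and 2 were lower at P of at most 0.05 in limma, with a median of −0.08. The shares over all tested genes were 5.02% and 15.2%. With median-of-ratios scaling 2 were higher and 0 lower, with a median of 0.01, beside 9.95% and 9.16% of all tested genes. Quantile normalization gave 1 higher and 2 lower, beside 8.40% and 9.07%. HAT1, which acetylates new H4, was at 85.9 and 90.3 TPM in control and at 103 and 99.4 TPM in oeDAZL (log2 fold change 0.20, adjusted p = 0.170 in limma). NASP, which holds the reserve of H3 and H4, was at 334 and 313 TPM in control and at 280 and 283 TPM in oeDAZL (log2 fold change −0.20, adjusted p = 0.152 in limma). CHAF1A, the large subunit of the chromatin assembly factor, was at 60.8 and 56.9 TPM in control and at 50.6 and 50.8 TPM in oeDAZL (log2 fold change −0.21, adjusted p = 0.178 in limma).

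**Figure D5:**
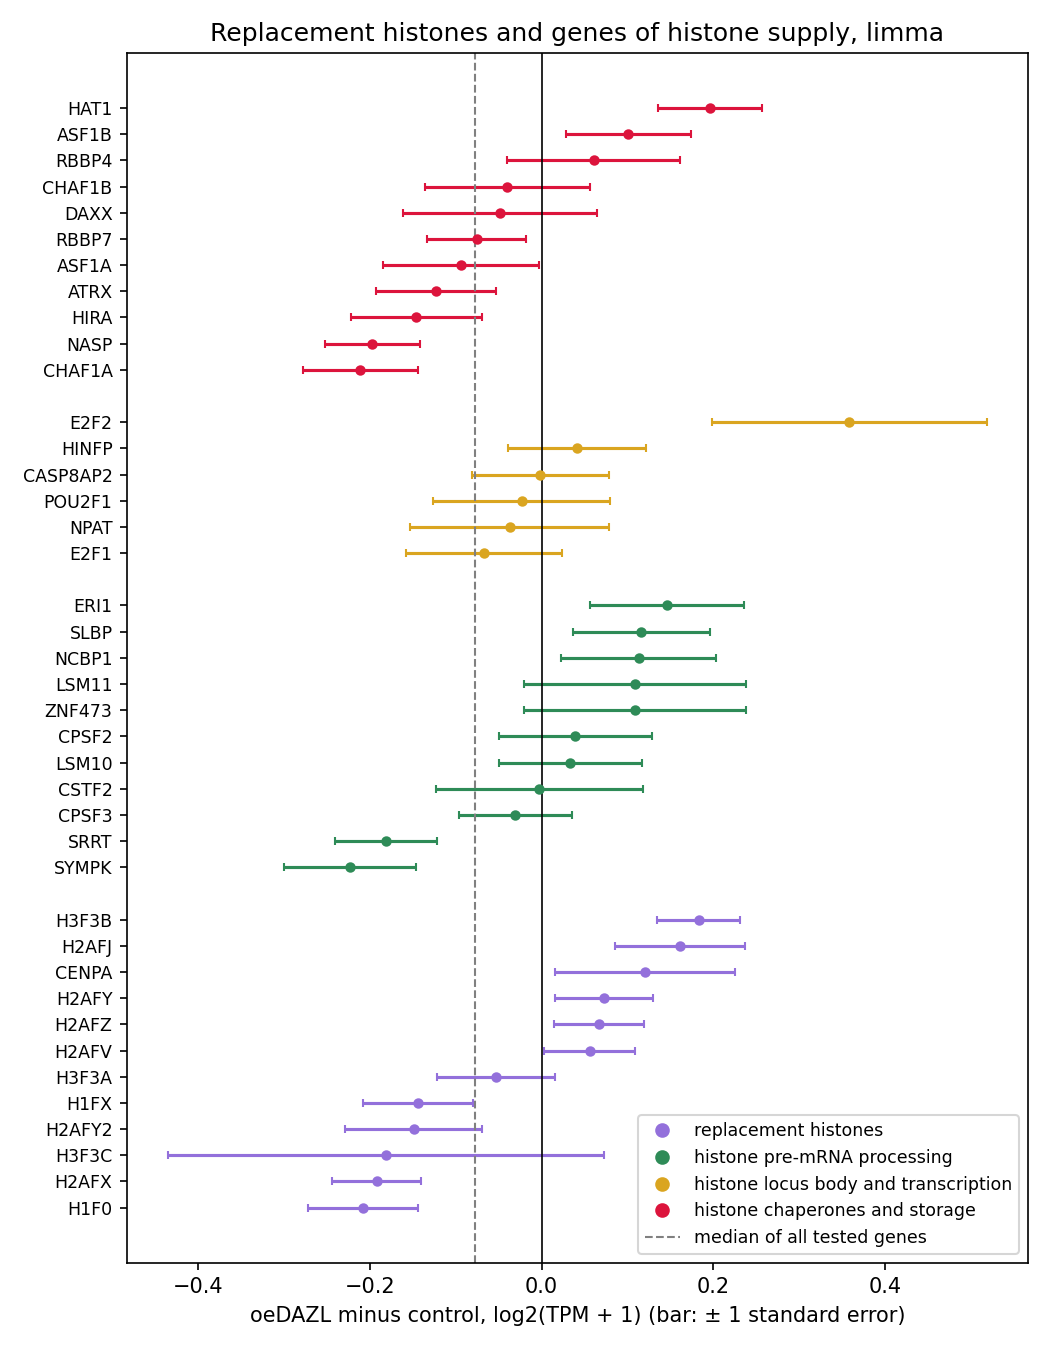
Log2 fold change of oeDAZL over control on the log2(TPM + 1) scale (horizontal axis) for 12 replacement histones, 11 processing factors, 6 genes of the locus body and transcription, and 11 chaperones, with bars of ± 1 standard error from limma. The values lie on both sides of 0, with E2F2 at 0.36 and SYMPK at −0.22 at the ends, and the dashed line marks the median of all tested genes, −0.08.

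Markers of S phase, when the clustered genes are active, were examined beside them. Of 15 such genes, 1 was higher (TYMS, log2 fold change 0.33, adjusted p = 0.104) and 1 was lower (GINS2, log2 fold change −0.20, adjusted p = 0.237) at P of at most 0.05 in limma, with a median of −0.01. Over all tested genes 5.02% were higher and 15.2% lower. With median-of-ratios scaling 4 of the 15 were higher and 0 lower, with a median of 0.08, beside 9.95% and 9.16% of all tested genes. GINS2 did not pass with quantile normalization either. In that setting 2 of the 15 were higher and 0 lower, with a median of 0.04, beside 8.40% and 9.07% of all tested genes. The list summed to 1578 and 1599 TPM in control and to 1658 and 1665 TPM in oeDAZL, with both oeDAZL libraries above both control libraries. Much of this came from TYMS, at 190 and 213 TPM in control and 253 TPM in both oeDAZL libraries. Without it the sums were 1388 and 1385 TPM in control and 1405 and 1412 TPM in oeDAZL.

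Other RNAs that lack a poly(A) tail were compared as well. Of 10 such genes, 3 reached a mean of 1 TPM. Of these, 1 was higher at P of at most 0.05 in limma, beside 5.02% of all tested genes. With median-of-ratios scaling or quantile normalization 2 were higher, beside 9.95% and 8.40%. RN7SL1, the RNA of the signal recognition particle, was at 14.1 and 15.8 TPM in control and at 17.8 and 27.5 TPM in oeDAZL (log2 fold change 0.54, adjusted p = 0.210 in limma). RN7SK, which regulates elongation by RNA polymerase II, was at 0.785 and 1.27 TPM in control and at 2.29 and 1.74 TPM in oeDAZL (log2 fold change 0.57, adjusted p = 0.266 in limma). Near-identical copies of both exist elsewhere in the genome, so their values are uncertain. The remaining tested RNA, RN7SL2, overlapped between groups, with a log2 fold change of 0.14. The other 7 were under the filter, with 2 of them at 0 throughout. Among those 7, RPPH1 was at 0.949 and 0.704 TPM in control and at 0.192 and 0.551 TPM in oeDAZL, lower without overlap.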

How the data were processed

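Total RNA of cells of H9 origin was sequenced in 2 control and 2 oeDAZL libraries. The authors deposited 1 table of TPM per gene, with a column per library. Per the study's methods, reads were trimmed with Trim Galore, mapped to hg38 with HISAT2 2.1.0, kept if mapped uniquely, and quantified with StringTie 2.1.4. The submitters' processing notes name Trim Galore 0.6.4 and the methods another version of it. The annotation release, the strand setting and the library type are not given in the sources used here. The miRNA libraries were not analysed here.

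TPM was transformed to log2(TPM + 1), and a linear model without covariates was fitted to the 16687 genes with a mean of at least 1 TPM, using R 4.3.3 and limma 3.58.1 (eBayes with trend). P-values were adjusted by the Benjamini-Hochberg method over all tested genes. Called genes had a fold change of at least 2 and P of at most 0.05. The procedure was tested on simulated data, with planted changes larger than those of the members and recovery scored only in genes of higher level. That run does not measure how well smaller changes, or changes in genes of low TPM, are found. The members, the lists and the tests were chosen with earlier results of these data known.

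Genes were named by a rule: the 4 members of each type with the highest mean, any called member, the 5 largest rises and 5 largest falls, and any gene of the lists. HIST2H3C, HIST2H4B, HIST1H4I, HIST1H1A, HIST1H4C, HIST1H2AK, HIST1H2BI, HIST1H4L and the members annotated as pseudogenes were named after their values were seen. MIZF of the locus body list and 1 alias of the mesoderm list were not matched. Of the members, 69 were matched to GENCODE 44 by identifier and 5 by symbol through RefSeq synonyms. Alternatives were another pseudocount (0.1), no filter, a mean of at least 5 TPM, median-of-ratios scaling, quantile normalization, TPM rescaled without mitochondrial genes, a replicate block, no trend, and leaving out each library. Sums by cluster and the S-phase sum without TYMS were added after the values were seen.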

Additional observations from a re-analysis of the deposited data

How the results depend on the processing

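No member was called higher under any alternative run, and with each library left out 0 to 1 was called lower, namely HIST1H4J without control replicate 2, against 0 in the main comparison. With a library left out, its group has 1 library, which is assumed to vary like the other group. The count of members lower at P of at most 0.05 in limma was 1 of 17 as reported. It was 3 of 17 without limma's trend, beside 13.9% of all tested genes. With either other scaling (median-of-ratios or quantile) it was 0, beside 9.16% and 9.07%. With no filter on TPM it was 4, but of 60 members tested, beside 9.04% of the 33251 genes tested there. With each of the 4 libraries left out in turn, HIST1H1C had log2 fold changes of −0.40 to −0.25. Without control replicate 2, HIST1H4J was at −1.33, HIST3H2A at −0.51 and HIST1H2BK at 0.31. The labels give both groups the same replicate numbers. With the replicate block the count was 0, and the deviations of same-numbered libraries had a correlation of −0.10 over genes. With the crossed replicate block, added after the data were seen, the count was 1. The block changed no call at a fold change of 2. The median log2 fold change of the tested members, −0.24, was −0.0735 with quantile normalization and −0.32 to −0.13 with each library left out. The members with both oeDAZL libraries above both controls, 0 as reported, numbered 1 with median-of-ratios scaling and 4 with quantile normalization, and those below, 8 as reported, numbered 4 with quantile normalization. The log2 ratio of the H2B sum, 0.00 as reported, was 0.0858 with median-of-ratios scaling, 0.0759 for members with a mean of at least 1 TPM, and −0.04 to 0.05 with each library left out. The sums kept their sign in those runs for H1 (−0.50 to −0.25), H2A (−0.29 to −0.06), H3 (−0.86 to −0.15) and H4 (−0.89 to −0.24). The cause of these shifts was not tested. The depth is unknown, so a listed 0 gives no upper limit.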
